A study of Mus musculus with 24 samples.

Results

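The circadian clock genes described here were *Arntl*, *Clock*, *Per1*, *Per2*, *Per3*, *Cry1*, *Cry2*, *Nr1d1*, *Nr1d2* and *Dbp*. They were found by their names in the gene name column of the array files, where 14 of the 55681 non-control probes and 10 of the 22328 named genes belonged to them. *Per1*, *Cry2*, *Nr1d2* and *Dbp* had 2 probes each. Male C57BL/6JOlaHsd mice, 10 weeks old on arrival, were kept on a 12 h light period and received a diet with 10% of energy as fat for 3 weeks and then one with 40% for 6 weeks. After an overnight restriction of food, 12 mice breathed 20.9% oxygen (Norm) and 12 breathed 12% oxygen (Hypox) for 6 h. The exposure began 1 h after the start of the light phase, and the mice were killed directly after it. Total RNA of *M. gastrocnemius* was hybridised. Both groups therefore shared the high-fat diet, the food restriction and the time of day, and the design holds a single time point of the daily cycle. Every 2-colour array read a single mouse in Cy5 against a reference, pooled from all the mice, in Cy3. The values below are log2 ratios of a mouse over the pool, so that a value of 0 is the level of the pool and a difference of 1 between groups is a doubling. In a whole muscle, a lower share of a cell type and less RNA per cell cannot be told apart.

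The circadian clock is a feedback loop of transcription that runs in almost every cell, muscle fibres included. BMAL1, the protein of *Arntl*, and CLOCK form a dimer that binds E-boxes in DNA and drives the *Per* and *Cry* genes, whose proteins return to the nucleus and inhibit the dimer. The same dimer drives *Nr1d1* and *Nr1d2*, which encode the nuclear receptors REV-ERBα and REV-ERBβ. These repress *Arntl* through ROR response elements (RORE), so that *Arntl* and its targets peak at opposite times of day. *Dbp* encodes a PAR bZIP activator that is itself driven through E-boxes and passes the rhythm on to genes with D-boxes. PER1 and PER2 are also reached by glucocorticoid and cAMP signals, which act on their genes through other elements, among them the cAMP response element (CRE).

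The promoter stretches that hold the letters of these elements are shown because the arms of the loop are defined by them. RefSeq promoters (GRCm38.p6), from 250 bases before to 50 bases after a start site, were given for 9 of the 10 genes, all but *Per2*, with 13 start sites in all. Both strands were searched for CACGTG (E-box), CACGTT (E′-box), TTATGTAA or TTACGTAA (D-box), TAGGTCA preceded by AAN (RORE) and TGACGTCA (CRE). Capitals mark the match, and each stretch is read in the direction of transcription.

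*Per1* E-box, chr11:69098757-69098814, + strand: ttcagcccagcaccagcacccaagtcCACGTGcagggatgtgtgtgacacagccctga
*Cry1* E-box, chr10:85185083-85185140, - strand: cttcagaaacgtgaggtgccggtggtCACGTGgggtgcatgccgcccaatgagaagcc
*Cry2* E′-box on the opposite strand, chr2:92434204-92434261, - strand: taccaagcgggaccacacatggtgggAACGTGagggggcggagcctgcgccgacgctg
*Nr1d1* E′-box on the opposite strand, chr11:98775378-98775431, - strand: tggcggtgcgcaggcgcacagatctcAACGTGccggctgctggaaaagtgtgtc
*Per3* D-box, chr4:151044837-151044896, - strand: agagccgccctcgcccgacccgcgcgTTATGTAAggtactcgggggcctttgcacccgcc
*Per3* D-box, chr4:151044790-151044849, - strand: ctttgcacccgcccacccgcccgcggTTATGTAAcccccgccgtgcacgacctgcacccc

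The E-box was found for 2 of the 9 genes, and for 8.09% of all 27025 genes with a promoter, or 7.15% of all 32851 promoters. The E′-box was found for 3 of the 9 genes, *Cry1*, *Cry2* and *Nr1d1*, and for 5.44% of all genes, or 4.68% of promoters. In the *Cry1* stretch it lies just before the E-box, in lower case, on the opposite strand. The D-box stood only at *Per3* among the 9 genes, at 2 places, against 1.23% of all genes, or 1.06% of promoters. A RORE was found only at *Arntl*, 28 bases after a start site, against 0.259% of all genes, or 0.219% of promoters. No CRE was found for any of the 9 genes, and 2.03% of all genes, or 1.79% of promoters, held one. These windows are short, and a match in letters is a description of the sequence.

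Every one of the 6 slides held 2 arrays of either group, and slides are numbered here from 1 to 6 by rising Cy5 signal. The mean Cy5 signal of an array lay between 58.3 and 933 for Norm mice and between 63.5 and 1014 for Hypox mice, so that dim genes were measured with little precision on the first slides. All 8 skeletal muscle markers were over 2 times the local background in Cy5. The summed Cy5 signal of 5 lung markers lay between 160 and 194 in Norm and between 167 and 1727 in Hypox, with the highest mean ratio on the array of Hypox replicate 8. The mean ratio of 4 adipose markers was highest in Norm replicate 12, at 1.07, with 0.21 on the next array. Of the lung markers, the surfactant genes differed between Hypox and Norm by 0.81 for *Sftpc* (limma over all probes, adjusted P-value = 0.436), 0.53 for *Sftpb* (adjusted P-value = 0.360), 0.29 for *Sftpd* and 0.19 for *Sftpa1*, and *Scgb1a1* of the airways by -0.00. *Sftpc* was at 3.42 times the background and the other 4 under 2 times. The part of such RNA in the results below was not tested. Left out in turn, neither of these arrays gave any clock gene an unadjusted P-value under 0.05. The comparison of Hypox with Norm used limma over the 9138 genes that were brighter in Cy5 than 2 times their local background, and adjusted P-values are those of Benjamini and Hochberg over all of them.

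Of the 10 clock genes, 7 passed this brightness filter and 3 did not. The Cy5 signal of the brightest probe was on average 77.0 times the background for *Dbp*, 29.6 times for *Cry2*, 29.3 times for *Per1*, 22.9 times for *Nr1d2*, 4.55 times for *Nr1d1*, 2.96 times for *Clock* and 2.33 times for *Arntl*. Signals of different probes depend on their sequences, so these values say how well each gene was measured and do not rank their levels. *Per2* reached 1.52 times the background and was called well above background by the scanner software on 1 Norm and 2 Hypox arrays. *Cry1*, at 1.30 times, was well above background on 0 Norm arrays and 1 Hypox array, and *Per3*, at 1.32 times, on 0 of the 24 arrays. No fold change is therefore given for *Cry1* and *Per3*, whose probes did not stand out from the background on nearly all arrays. The comparisons below therefore rest mainly on the other 7 genes.

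**Figure D1:**
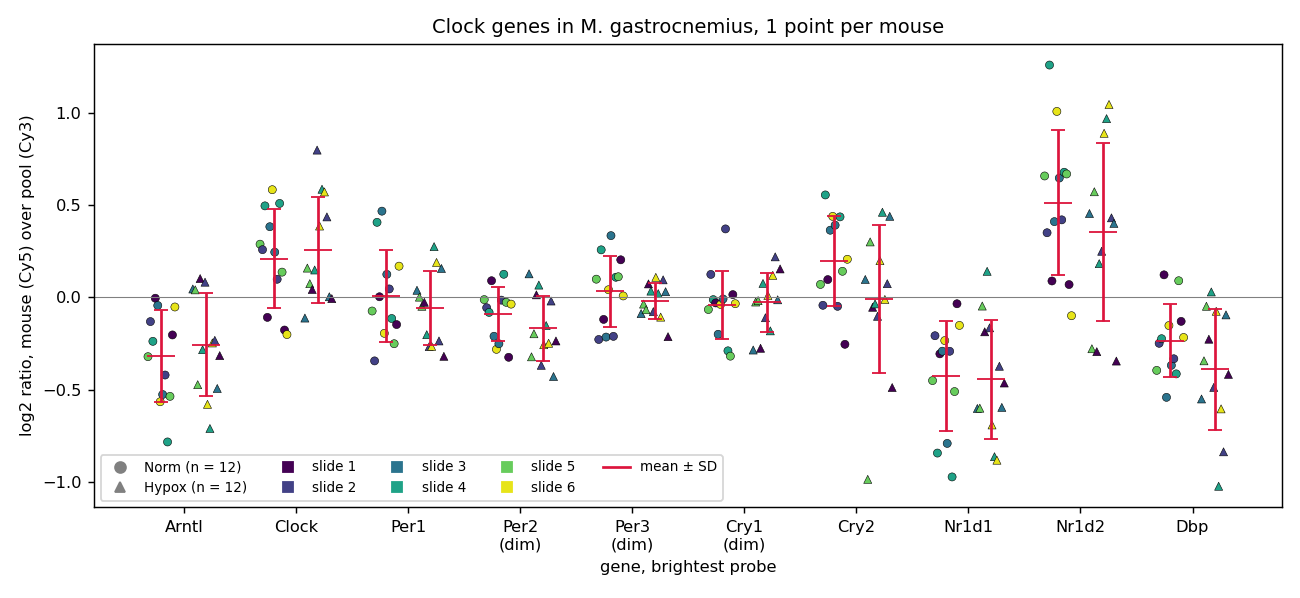
Log2 ratio of each mouse over the pool (y axis) for the brightest probe of each clock gene (x axis), 1 point per mouse, circles for Norm and triangles for Hypox (n = 12 each), coloured by slide, with the mean and SD in red. The Norm and Hypox points overlap for all 10 genes, and those of *Cry2*, *Clock* and *Nr1d2* on slide 1 lie low in both groups.

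None of the 7 genes passed either threshold. Among all 9138 genes, 12.2% had an unadjusted P-value under 0.05 and 0.339% an adjusted P-value under 0.05, against 0 of 7 clock genes for both. Of the 7 genes, 2 were higher and 5 lower in Hypox by their means, and their median difference was -0.07, where the median of all genes was 0.03. For the probe used for each of the 7 genes, the 95% confidence intervals reached no further than 0.28 upwards and 0.50 downwards on the log2 scale. Changes within these intervals cannot be told from the spread of the mice. The bounds are particular to these probes and this processing. In the fit over all probes, the interval of the other *Per1* probe reached 0.46 upwards and that of the other *Dbp* probe 0.35.

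The positive arm of the loop is made of *Arntl* and *Clock*. The *Arntl* probe lies at chr7:120457261-120457320 (mm9, + strand, the build of the array files). The log2 ratio of *Arntl* spanned -0.78 to -0.00 among the Norm mice, with a median of -0.28, and -0.71 to 0.10 among the Hypox mice, with a median of -0.26. The lowest values of both groups came from slide 4, and 4 Hypox mice lay just above the highest Norm mouse while the other 8 were within the range of Norm. The means were -0.32 ± 0.25 (SD, n = 12) and -0.25 ± 0.28 (SD, n = 12), a difference of 0.06 with a 95% confidence interval from -0.15 to 0.28 (limma, P-value = 0.549, adjusted P-value = 0.830). *Arntl* was higher in Hypox on 4 of the 6 slides.

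*Clock*, which encodes the partner of BMAL1, spanned -0.20 to 0.58 among the Norm mice, with a median of 0.25, and -0.11 to 0.80 among the Hypox mice, with a median of 0.15. Its probe lies at chr5:76641377-76641436 (mm9, - strand). The difference between the means was 0.05, with an interval from -0.18 to 0.27 (limma, P-value = 0.666, adjusted P-value = 0.883). On single slides it ran from -0.37 on slide 3 to 0.44 on slide 2, and 3 slides were on either side of 0. The highest value of all 24 mice was that of Hypox replicate 6, and without this array the difference was -0.00.

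Among the repressors of the negative arm, *Per1* was bright enough on all 24 arrays. Its brightest probe lies at chr11:68923364-68923423 (mm9, + strand), and its ratio spanned -0.34 to 0.47 among the Norm mice, with a median of -0.03, and -0.32 to 0.28 among the Hypox mice, with a median of -0.04. The medians were thus almost equal, and the highest values came from Norm mice. The difference was -0.07, from -0.26 to 0.12 (limma, P-value = 0.481, adjusted P-value = 0.794). A second *Per1* probe at chr11:68919895-68919954 gave 0.16, from -0.14 to 0.46 (P-value = 0.282 in a limma fit over all 55681 probes without the filter). Its value for Hypox replicate 2 was 1.80, while the next highest mouse of either group stood at 0.67. Over the 12 Norm mice the ratios of both *Per1* probes correlated at -0.34, and over the 12 Hypox mice at 0.27, or 0.50 without the mouse with the largest gap.

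*Per2*, a repressor that also responds to glucocorticoids, was under the filter, and its values are close to the background. It spanned -0.32 to 0.13 among the Norm mice, with a median of -0.05, and -0.43 to 0.13 among the Hypox mice, with a median of -0.22. The groups overlapped, with 3 Hypox mice outside the range of Norm, and 2 of the 6 slides were higher in Hypox. Without the filter the difference was -0.08, from -0.21 to 0.06 (limma, P-value = 0.242).

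*Cry2*, whose protein represses the dimer together with the PER proteins, had the largest difference of the 7 genes. Its bright probe, at chr2:92243807-92243866 (mm9, - strand), spanned -0.25 to 0.55 among the Norm mice, with a median of 0.17, and -0.98 to 0.46 among the Hypox mice, with a median of 0.03. Hypox replicate 2, at -0.98, and Hypox replicate 12, at -0.49, lay below the lowest Norm mouse, and the other 10 Hypox mice were within the range of Norm. The means were 0.20 ± 0.24 (SD, n = 12) and -0.01 ± 0.40 (SD, n = 12), a difference of -0.20 with an interval from -0.47 to 0.06 (limma, P-value = 0.122, adjusted P-value = 0.532). It was lower in Hypox on 5 of the 6 slides, and the difference was -0.12 without Hypox replicate 2 and -0.01 when limma weighted the arrays by their quality.

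A second *Cry2* probe, at chr2:92251417-92251476, was the only one of the 14 probes with an unadjusted P-value under 0.05, where 8.06% of all 55681 probes had one in the fit without the filter, 3.93% with a lower value in Hypox. No member probe passed the adjusted threshold, which 0.0808% of all probes did. Its ratio spanned -0.27 to 0.69 among the Norm mice, with a median of 0.08, and -0.31 to -0.02 among the Hypox mice, with a median of -0.17. All 12 Hypox mice were below the pool, and 5 of the 12 Norm mice were as well, so that the groups overlapped. The difference was -0.25, from -0.41 to -0.09 (limma, P-value = 0.00303, adjusted P-value = 0.290), and it was lower on 5 of the 6 slides. At 1.73 times the background this probe did not pass the filter, and it was called well above background on 6 Norm and 2 Hypox arrays. Its difference was -0.11 (P-value = 0.239) when each array was centred on its median and -0.40 (P-value = 0.0583) in the deposited values, where 5.03% of all probes had an unadjusted P-value under 0.05. Both *Cry2* probes correlated with r = 0.13 over the Norm mice and 0.62 over the Hypox mice.

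*Nr1d1* and *Nr1d2* encode the receptors that close the second loop by repressing *Arntl*. *Nr1d1*, whose probe spans chr11:98630526-98631028 (mm9, - strand), spanned -0.97 to -0.03 among the Norm mice, with a median of -0.30, and -0.88 to 0.14 among the Hypox mice, with a median of -0.53. All but 1 of the 24 mice were below the pool. The difference was -0.02, from -0.27 to 0.23 (limma, P-value = 0.869, adjusted P-value = 0.961), and it ran from -0.59 on slide 6 to 0.55 on slide 4.

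*Nr1d2* varied most among the 10 genes, with an SD within groups of 0.44. Its bright probe, at chr14:19036568-19036627 (mm9, - strand), spanned -0.10 to 1.26 among the Norm mice, with a median of 0.53, and -0.34 to 1.04 among the Hypox mice, with a median of 0.42. The mice of slide 1 were among the lowest of both groups, and the slide means ran from -0.12 on slide 1 to 0.77 on slide 4. The difference was -0.16, from -0.50 to 0.18 (limma, P-value = 0.352, adjusted P-value = 0.723). It was lower in Hypox on 5 slides, down to -0.52 on slide 5, and higher by 0.51 on slide 6, and it was -0.04 with the arrays weighted by quality. The other probe, at chr14:19037253-19037312, gave -0.13, from -0.32 to 0.06 (P-value = 0.175, fit over all probes), and followed the bright one with r = 0.79 in Norm and 0.68 in Hypox. Of the variance of *Nr1d2* within groups, 47.7% lay between slides, and the share was 43.7% for *Cry2* and 42.4% for *Clock*, which were likewise lowest on slide 1 and highest on slide 4. It was 38.1% for *Per1*, 26.4% for *Arntl*, 24.1% for *Nr1d1* and 21.2% for *Dbp*. Some share lies between slides even without an effect of the slide, since each slide mean is over few mice. Whether these shares exceed that level was not tested.

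*Dbp*, the output of the loop, was well above background on all arrays with both of its probes. The probe used, at chr7:52965322-52965381 (mm9, + strand), spanned -0.54 to 0.12 among the Norm mice, with a median of -0.24, and -1.02 to 0.03 among the Hypox mice, with a median of -0.38. Of the Hypox mice 4 lay below the lowest Norm mouse, replicates 8 and 10 at -1.02 and -0.83 and, just outside, replicates 9 and 1 at -0.60 and -0.55, and the other 8 were within the range of Norm. The difference was -0.16, from -0.38 to 0.06 (limma, P-value = 0.160, adjusted P-value = 0.575), with Hypox lower on 5 of the 6 slides. The other probe, at chr7:52965461-52965520, gave -0.05, from -0.45 to 0.35 (P-value = 0.809, fit over all probes). There Hypox replicate 12 stood at 1.78, where the first probe had -0.42, and without that mouse the r between both probes over Hypox was 0.77 in place of 0.44. Over the Norm mice it was 0.17, or 0.33 without the mouse with the largest gap.

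**Figure D2:**
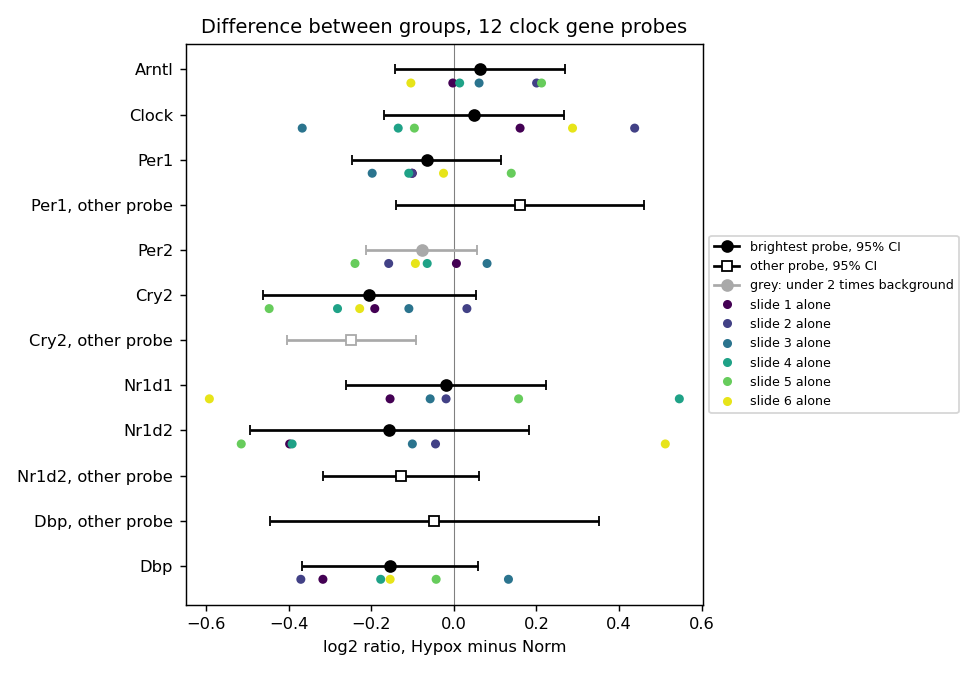
Difference of the log2 ratio, Hypox minus Norm (x axis), for 12 clock gene probes (y axis) with the 95% confidence interval, grey where the Cy5 signal was under 2 times the background, and the difference on each slide alone below the brightest probe (small points, coloured by slide). All intervals but that of the dim *Cry2* probe include 0, and *Nr1d1* and *Nr1d2* have slides on both sides of 0 by over 0.5.

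The direction of these small differences depended on the processing. When each array was centred on its median without loess, the median of all genes moved from 0.03 to 0.25, and all 7 clock genes were higher in Hypox, between 0.16 for *Cry2* and 0.32 for *Dbp*. In the deposited values, *Dbp* was at 0.13, *Per1* at 0.13, *Nr1d2* at 0.03 and *Cry2* at 0.01, against a negative difference for each in the ratios. The scanner software's processed signals gave *Cry2* -0.34 (limma, P-value = 0.0244, adjusted P-value = 0.349) and *Nr1d2* -0.33 (limma, P-value = 0.0181, adjusted P-value = 0.313), which were the only unadjusted P-values under 0.05 of the 7 genes among 39 alternatives. With log2 of the mean Cy5 signal of the array as a covariate, the differences were -0.23 for *Cry2*, -0.21 for *Nr1d2* and -0.15 for *Dbp*.

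**Figure D3:**
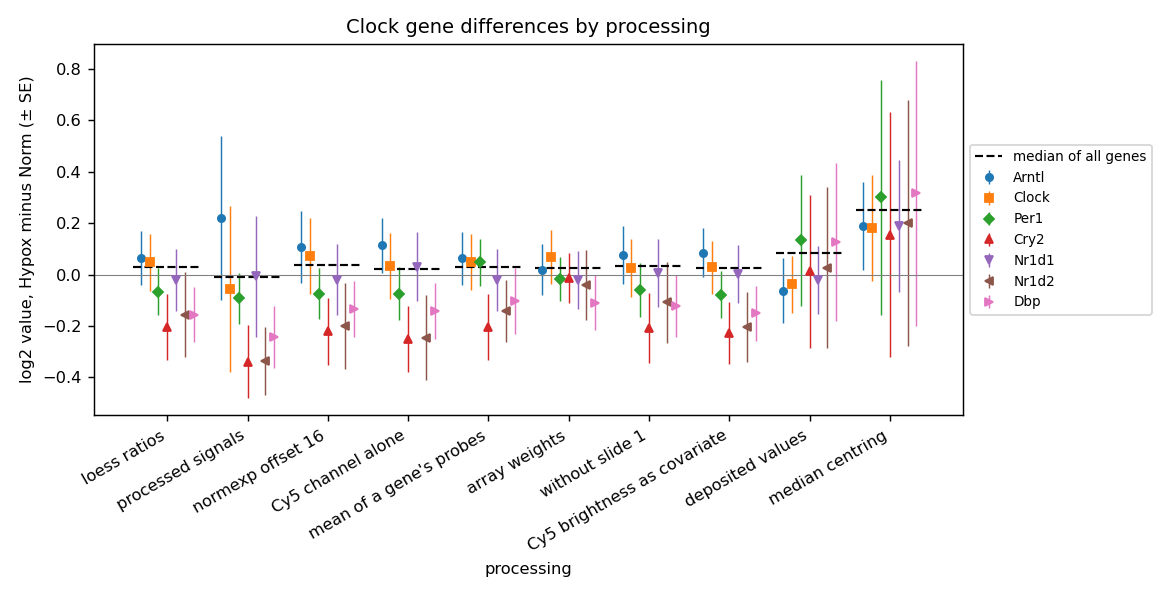
Difference between Hypox and Norm on the log2 scale with its SE (y axis) for the 7 clock genes past the filter, under 10 ways of processing (x axis), with the median of all genes tested as a dashed line. The points scatter around 0 for most settings and all lie above 0 under median centring, where the dashed line stands at 0.25.

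Other genes of the clock were examined in a list of 38, of which 33 were tested. Of these, 5 had an unadjusted P-value under 0.05, 2 higher and 3 lower in Hypox, beside 7.17% higher and 5.07% lower of all genes, and the median difference was 0.01. *Csnk1a1*, a casein kinase 1 that phosphorylates PER proteins, fell by 0.39, with group means of 0.64 ± 0.24 for Norm and 0.26 ± 0.18 for Hypox (SD, n = 12 each) and an adjusted P-value of 0.0464 by limma. Its adjusted P-value ranged from 0.0217 to 0.0993 when each array was left out in turn, with 5 of 24 under 0.05, and the difference was -0.18 for the mean of its probes, -0.03 under median centring and -0.25 in the deposited values. *Rora*, the activator that competes with REV-ERB proteins at ROREs, spanned -0.52 to 0.43 among the Norm mice, with a median of -0.14, and -0.78 to -0.21 among the Hypox mice, with a median of -0.50. It was lower in Hypox on 6 of 6 slides, by -0.41 on average (limma, adjusted P-value = 0.0541, or 0.0485 with the slide as a block), and by -0.10 under median centring. *Crebbp*, a histone acetyltransferase that works with the BMAL1 and CLOCK dimer, differed by -0.28 (adjusted P-value = 0.189) and was lower on 6 of 6 slides, but stood at 0.12 under median centring. *Wdr5*, a subunit of histone methyltransferases found with PER proteins, differed by 0.18 (adjusted P-value = 0.341). *Hdac3*, the deacetylase that REV-ERB proteins recruit, differed by 0.29 (adjusted P-value = 0.350), and by 0.18 without Hypox replicate 2.

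By role, 4 other bHLH-PAS factors and 3 further E-box repressors were tested, and 0 of them had an unadjusted P-value under 0.05. The same held for the PAR bZIP factors *Tef* and *Hlf* and for *Nfil3*, a bZIP repressor that binds the same D-boxes. Of 11 cofactors, 2 were higher and 1 lower at that threshold, of 10 modifiers of clock proteins 1 was lower, and of 2 ROR genes 1 was lower. *Tef*, a relative of *Dbp*, had a difference of -0.15 (limma, P-value = 0.0717, adjusted P-value = 0.450).

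Among 15 genes known as outputs of the clock in muscle and other tissues, 13 were tested, with a median difference of 0.08. Of these, 1 had an unadjusted P-value under 0.05, beside 12.2% of all genes, which leaves the list near the background. This was *Ucp3*, an uncoupling protein of muscle mitochondria that also follows fatty acid supply, which spanned -0.96 to 0.08 among the Norm mice (median -0.28) and -0.59 to 0.25 among the Hypox mice (median -0.14). The difference was 0.31, and it was higher on 5 of 6 slides (limma, P-value = 0.00954, adjusted P-value = 0.240).

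Glucocorticoid targets were listed because the hormone follows the daily cycle and acts on *Per1* and *Per2*. All 15 were tested, with a median difference of 0.17, beside 0.03 for all genes. Of them, 4 had an unadjusted P-value under 0.05, all higher, where 12.2% of all genes had one and 7.17% were higher with one. *Sgk1*, a kinase of ion transport and cell survival, rose by 0.46, with group means of 0.21 ± 0.26 for Norm and 0.67 ± 0.27 for Hypox (SD, n = 12 each; limma, adjusted P-value = 0.0477), and was higher on 6 of 6 slides. When each array was left out in turn its adjusted P-value ranged from 0.0253 to 0.102, with 4 of 24 under 0.05. Under median centring its difference was 0.85 (adjusted P-value = 0.724). The metallothioneins *Mt1* and *Mt2*, which bind zinc and copper and also respond to those metals, differed by 0.52 (limma, adjusted P-value = 0.0583) and 0.62 (limma, adjusted P-value = 0.0651), both on 6 of 6 slides. With the slide as a block their adjusted P-values were 0.0368 and 0.0430, under the threshold. *Errfi1*, an inhibitor of the EGF receptor, differed by 0.42 (limma, adjusted P-value = 0.194), also on 6 of 6 slides. *Per1*, which shares this hormone signal, differed by -0.07 in the same fit.

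The correlations between clock genes over the mice of a group show whether the arms varied together at this time of day. With 10 genes there were 45 pairs, and 90 values over both groups, of which 21 pairs were between the 7 genes past the filter. Each value is over 12 mice, with a permutation test of 100000 permutations, 2-sided, adjusted over the 90 values. Of the 90, 9 had an unadjusted P-value under 0.05 and 1 an adjusted P-value under 0.05. All 9 were between genes past the filter, 6 in Norm and 3 in Hypox. The share over pairs of all genes was not computed, here or for the other normalizations below.

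Between the positive arm and the other genes there were 10 pairs past the filter in each group. In Norm their r ranged from -0.57 to 0.86 with a median of 0.12, and 4 were negative. In Hypox it ranged from -0.60 to 0.50 with a median of -0.11, and 6 were negative. *Arntl* and *Clock* themselves had r = -0.53 (permutation P-value = 0.0788) in Norm and -0.11 (permutation P-value = 0.728) in Hypox. Among the 5 targets of the dimer past the filter, the median r over 10 pairs was -0.19 in Norm and -0.06 in Hypox. Positive and negative values thus occurred both across the arms and among the targets.

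The pair that passed was *Clock* with *Nr1d2* in Norm, with r = 0.86 (permutation P-value = 0.00038, adjusted P-value = 0.0342) and rho = 0.82 (adjusted P-value = 0.183). Without the 2 arrays farthest from the *Clock* median r was 0.76, and without any single mouse it stayed between 0.82 and 0.90. With the slide means removed r was 0.77, but 94.1% of the within-slide product came from slide 6, whose Norm mice lay near both ends of the range, and over the other 5 slides r was -0.30. The exact test over the 64 sign changes of the within-slide differences gave P-value = 0.969. Since slide 6 held most of the product, sign changes hardly altered the size of r, so this test could not decide. In Hypox the same pair had r = 0.50 (permutation P-value = 0.102). Both genes were among those that were low on slide 1.

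*Cry2* and *Nr1d2* correlated with similar values in both groups, r = 0.67 (permutation P-value = 0.0169, adjusted P-value = 0.304) in Norm and 0.70 (permutation P-value = 0.0069, adjusted P-value = 0.304) in Hypox. Within slides they stayed at 0.60 (exact P-value = 0.0625) and 0.83 (exact P-value = 0.250). Without the 2 arrays farthest from the *Cry2* median they were 0.44 and 0.47, so that the relation rested in part on those mice. With the other probe of both genes, of which that of *Cry2* was under the filter, r was 0.34 in Norm and 0.18 in Hypox.

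*Nr1d1* and *Dbp*, both driven through E-boxes, had r = 0.26 in Norm (permutation P-value = 0.424) and 0.53 in Hypox (permutation P-value = 0.0782, adjusted P-value = 0.473). With the slide means removed it was 0.88 in Hypox, where the 2 mice of a slide differed in the same direction for both genes on 6 of 6 slides (exact P-value = 0.0312, the smallest that 64 sign changes can give, and 1.0 after adjustment over the 90 values). *Cry2* and *Dbp* in Norm also moved together on 6 of 6 slides, with r = 0.61 within slides, -0.28 without the slide means removed, and the same exact P-values. For *Nr1d1* and *Dbp* in Norm the value within slides was -0.43, with 2 of 6 slides in the same direction (exact P-value = 0.250). The difference between the groups within slides was not tested. With the other *Dbp* probe, r was 0.67 in Norm and 0.06 in Hypox.

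*Arntl* was negatively correlated with *Cry2* in Hypox, r = -0.60 (permutation P-value = 0.0340, adjusted P-value = 0.424), and with *Nr1d2*, r = -0.60 (permutation P-value = 0.0419, adjusted P-value = 0.424). In Norm these values were -0.34 and -0.56. With the array's log2 mean Cy5 signal removed by regression, the Hypox values were -0.58 for *Cry2* and -0.35 for *Nr1d2*. The other probes of *Dbp*, *Nr1d2*, *Per1* and *Cry2* were also used for the pairs between the positive arm and the targets past the filter. The filter was applied here by gene, and the other *Cry2* probe, at 1.73 times the background, was itself under it. The r of these pairs then ranged from -0.35 to 0.84 in Hypox and from -0.71 to 0.78 in Norm. In Hypox 1 pair had an unadjusted permutation P-value under 0.05, and it was positive. In Norm there were 4, of which 2 were negative. With *Nr1d1*, its other repressor, *Arntl* was positively correlated in Norm, r = 0.60 (permutation P-value = 0.0424, adjusted P-value = 0.424), and had r = 0.30 in Hypox. *Nr1d1* and *Nr1d2*, which are closely related receptors, had opposite signs, r = -0.64 (permutation P-value = 0.0252, adjusted P-value = 0.378) in Norm and -0.47 in Hypox, or -0.19 and -0.26 with slide means removed.

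**Figure D4:**
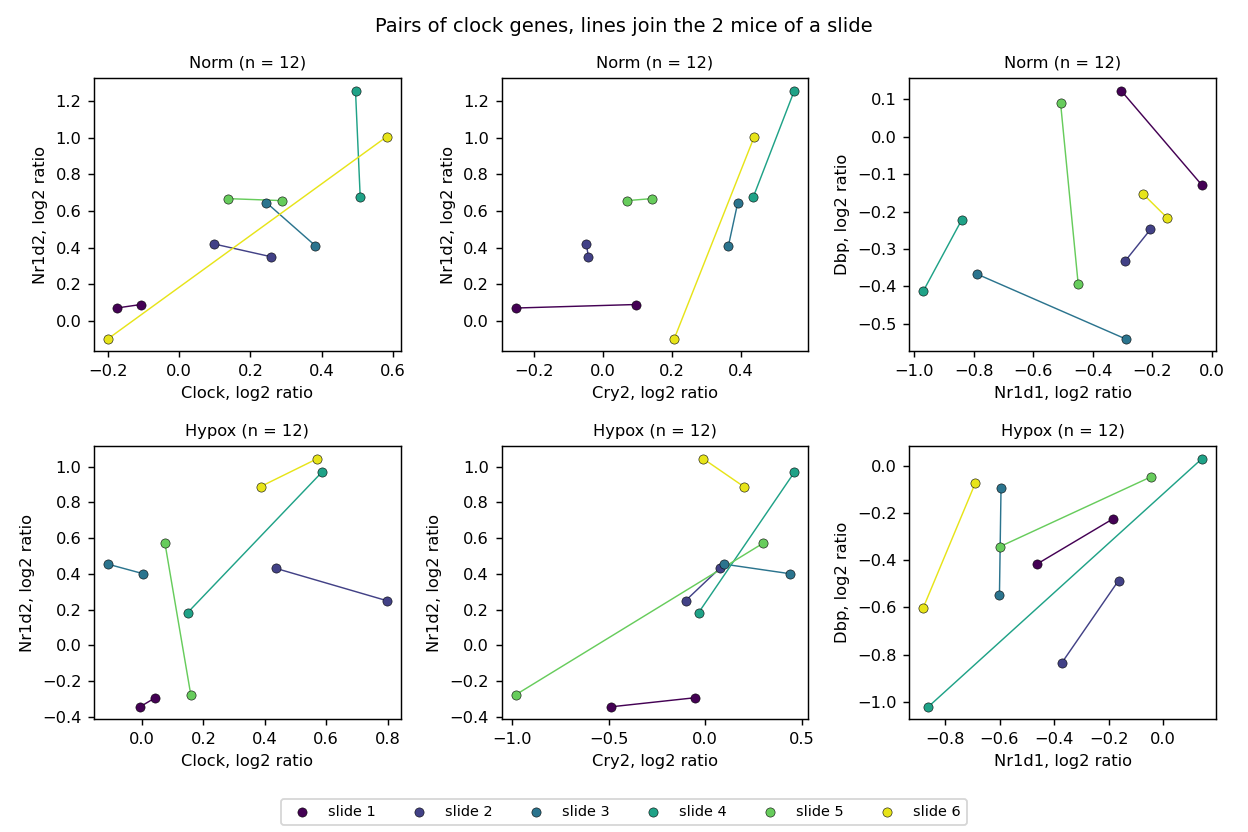
Log2 ratios of 3 pairs of clock genes over the 12 Norm mice (top) and the 12 Hypox mice (bottom), both axes in log2 ratio over the pool, points coloured by slide, with a line between the 2 mice of a slide. The line of slide 6 spans the Norm panel of *Clock* and *Nr1d2* (r = 0.86), and all 6 lines rise in the Hypox panel of *Nr1d1* and *Dbp*.

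No pair passed a threshold for a difference between the groups, which does not show that the correlations were equal. The difference of r, Hypox minus Norm, was tested by 100000 permutations of the group labels for the 45 pairs, and 0 had an unadjusted P-value under 0.05. The smallest was that of *Clock* and *Cry2*, with r = 0.71 in Norm and 0.13 in Hypox (permutation P-value = 0.0894, adjusted P-value = 0.967).

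The correlations differed with the normalization. Under median centring all 21 pairs past the filter were positive in both groups, with a median r of 0.87 in Norm and 0.81 in Hypox, and 40 of the 90 values passed the adjusted threshold. All 7 genes past the filter there followed the brightness of the array. Their r with log2 of the mean Cy5 signal lay between 0.72 and 0.99 in Norm and between 0.60 and 0.95 in Hypox. In the deposited values, which hold 8 of the 10 genes, the pairs among *Per1*, *Cry2*, *Nr1d1*, *Nr1d2* and *Dbp* had a median r of 0.87 in Norm and 0.75 in Hypox, and those between the positive arm and these genes -0.38 and -0.29, with 22 of 56 values past the adjusted threshold. In these values *Per1*, *Cry2*, *Nr1d2* and *Dbp* also followed the brightness of the array. Their r with log2 of the mean Cy5 signal was between 0.83 and 0.94 in Norm and between 0.70 and 0.88 in Hypox, while *Arntl* had -0.63 and -0.58. With the brightness removed by regression within each group, 5 of the 56 values passed. In the loess ratios the same r with brightness lay between -0.39 and 0.65 in Norm and between -0.55 and 0.74 in Hypox for the 7 genes, the highest being *Nr1d2* in Hypox (permutation P-value = 0.00712, adjusted P-value over 20 values = 0.142).

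**Figure D5:**
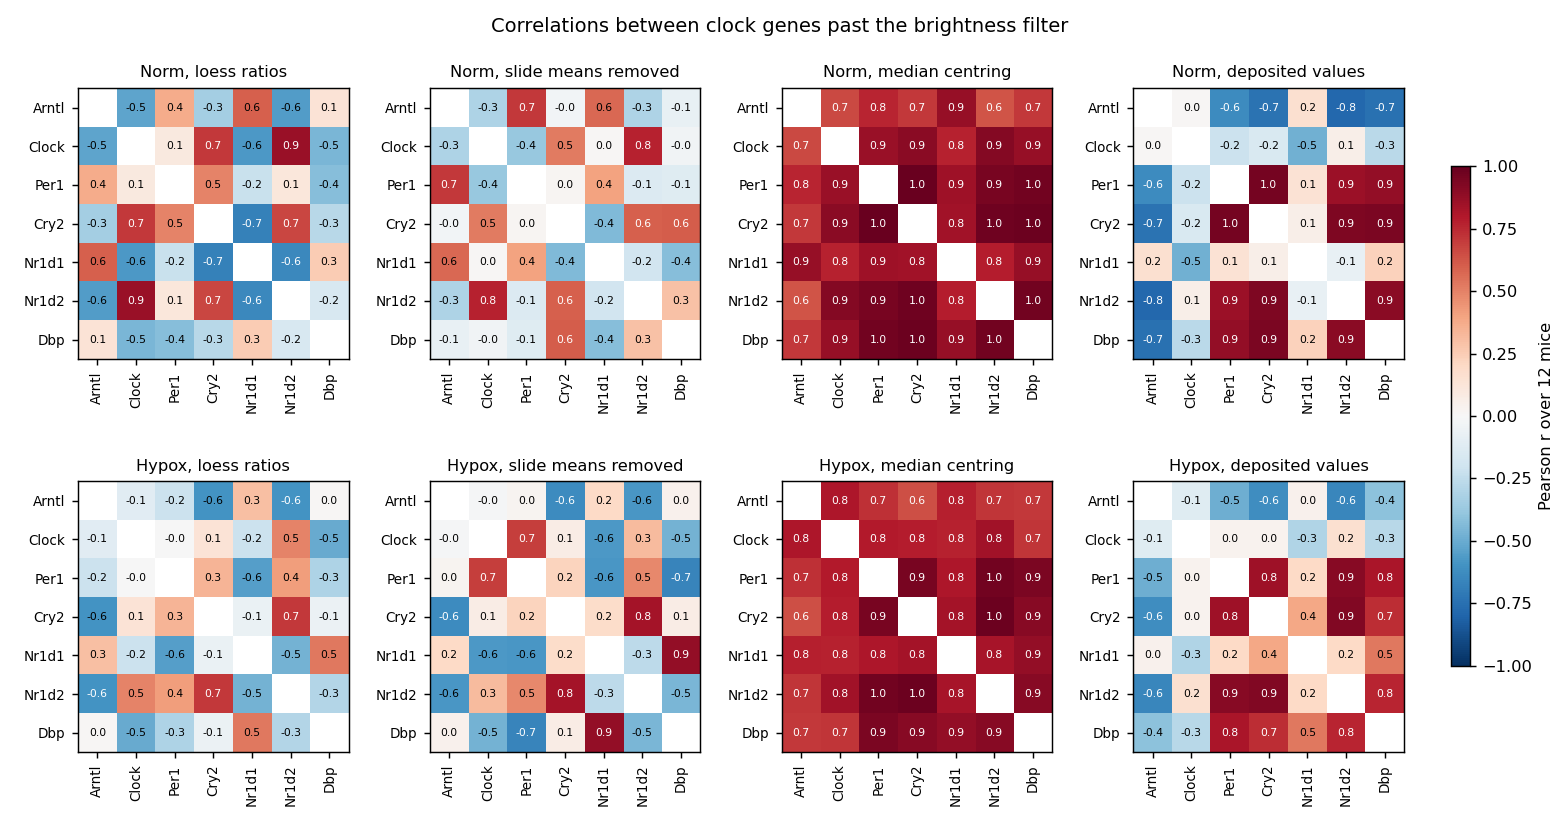
Pearson r over the 12 mice of Norm (top) and Hypox (bottom) between the 7 clock genes past the filter, in colour and printed to 1 decimal, for loess ratios, loess ratios with slide means removed, median centring and the deposited values. All pairs are positive under median centring, and in the deposited values *Per1*, *Cry2*, *Nr1d2* and *Dbp* are positive with each other and negative with *Arntl*, a block that the loess ratios do not show.

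The genes most like *Arntl* and *Dbp* over the 24 arrays, after the group means were removed, are given as a description, since they are the extremes of 9138 genes. For *Arntl* the highest r were those of *Alas2* (0.78), *Fzd7* (0.76), *Siglece* (0.75), *Rraga* (0.73) and *Usp34* (0.70), and the lowest those of *Snapc3* (-0.73), *Tmem131* (-0.70), *Smim3* (-0.66), *Cyb561* (-0.65) and *Ccdc90b* (-0.65). For *Dbp* they were *Yif1a* (0.74), *Nbl1* (0.71), *Gfod2* (0.70), *Gstp1* (0.69) and *Pde4a* (0.69), against *Fbxo32* (-0.77), *Tasor2* (-0.68), *Lgals4* (-0.66), *Zcchc7* (-0.66) and *Rbm48* (-0.66). *Fbxo32* encodes atrogin-1, a ubiquitin ligase of muscle wasting, and its r with *Dbp* was -0.78 with slide means removed. The 10 clock genes were left out of this ranking, so that none of them could be among these genes.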

How the data were processed

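The authors deposited the intensity of every spot in both channels, as mean signal and local background from Agilent Feature Extraction 10.7.3.1 (the version is that of the submitters' processing notes), not yet normalized, and log2 values that they normalized in GeneMaths XT. All columns of the latter shared a median of 6.58, as after a shift per array. The part of the Cy3 channel in it is not given in the sources used here. Some Hypox samples carry dye labels that fit no array, so the channel of each mouse followed the descriptions. Dyes were never swapped. The 24 mice were treated as 12 replicates per group.

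Control spots and 7260 flagged spot readings were left out. After normexp background correction (offset 50), each array was loess normalized, the Cy5 to Cy3 ratio was taken on the log2 scale, and repeated spots were averaged. Probes with a mean Cy5 signal over 2 times the background and at most 4 missing arrays were kept. Each gene was read from its brightest probe, by the mean of both channels. Of 55681 probes, 27235 were named by accession, 3581 by symbol and 563 by synonym through RefSeq. The number of arrays and the Cy5 signal limit the precision.

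limma's moderated test had no block. Group tests and correlations were tested on simulated data. The clock genes, the gene lists and the tests were chosen with earlier results of these data known. The genes named are the 10 members, the members of each list with an unadjusted P-value under 0.05 (or the 2 with the smallest), and 5 genes at each end of the likeness to *Arntl* and *Dbp*. Probe coordinates are those of the array files (mm9) and were not converted. Alternatives were other signals, background offsets, normalizations, filters, probes, blocks, weights and left out arrays. Models were fitted with limma 3.58.1 under R 4.3.3, and permutations and figures were made with Python 3.11.15 (scipy 1.17.1, matplotlib 3.10.9).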

Additional observations from a re-analysis of the deposited data

How the results depend on the processing

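The count of 0 clock genes with an unadjusted P-value under 0.05 held when each of the 24 arrays was left out and under 14 of 15 other alternatives. It was 2 with the processed signals. Of the 14 probes, 1 passed, 3 with the processed signals and 0 under median centring or in the deposited values. The number of correlations past the adjusted threshold was 1. It became 0 with the Cy5 channel alone, without the slide with the lowest Cy5 signal or with the brightness removed. The other probe of *Dbp*, *Nr1d2*, *Per1* and *Cry2* also gave 0. It was 40 under median centring, 22 in the deposited values and 5 in the deposited values with the brightness removed. With slide means removed it was 0 as well, but there a pair could not pass on its own. The exact test gives no P-value under 0.0312, and 90 values were adjusted. Of the other clock genes, 5 passed in the ratios, 0 under median centring and 2 in the deposited values. Of the clock outputs, 1 passed, 0 under median centring or in the Cy5 channel alone, 2 with the slide as a block, and between 1 and 2 with an array left out. Of the glucocorticoid targets 4 passed, and 0 under median centring. Over all genes, limma gave 1118 with an unadjusted P-value under 0.05 and 31 after Benjamini-Hochberg adjustment, the methods' t-test 1112 and 9 on the ratios, and 516 and 1 on the deposited values. With limma, 32 of all 9138 genes had an unadjusted P-value under 0.05 under median centring. The count was 722 in the Cy5 channel alone, 1297 with the slide as a block and 1017 with the processed signals. In the deposited values it was 488 of 9129. A count of 0 in a list under median centring is therefore near the share of all genes.

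Directions turned as follows. Under median centring the differences were 0.16 for *Cry2*, 0.32 for *Dbp*, 0.19 for *Nr1d1*, 0.20 for *Nr1d2*, 0.30 for *Per1* and 0.12 for *Crebbp*. In the deposited values, with limma or with the methods' t-test, they were -0.062 for *Arntl*, -0.038 for *Clock*, 0.013 for *Cry2*, 0.13 for *Dbp*, 0.027 for *Nr1d2* and 0.13 for *Per1*. *Clock* was at -0.055 with the processed signals, and *Per1* at 0.047 with the mean of its probes. *Nr1d1* was at 0.031 in the Cy5 channel alone, 0.0068 without the slide with the lowest Cy5 signal and 0.0032 with the brightness as a covariate, and between -0.073 and 0.020 with an array left out. *Clock* was between -0.0012 and 0.082 with an array left out. *Arntl* (0.021 without Norm replicate 9 to 0.10 without Hypox replicate 8), *Per1* (-0.098 without Norm replicate 2 to -0.024 without Norm replicate 5), *Nr1d2* (-0.22 without Hypox replicate 9 to -0.089 without Norm replicate 3) and *Dbp* (-0.19 without Hypox replicate 5 to -0.098 without Hypox replicate 8) kept their sign. The cause of these changes was not tested.

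Replicate numbers do not pair the mice. The correlation of same-numbered arrays ranged from -0.20 to 0.52, with 3 of 12 over 0.1, and 2 of 12 Norm arrays correlated best with their own number. With the replicate block, 0 clock genes passed, and the counts were 6 other clock genes, 1 clock output and 6 glucocorticoid targets. Of all 9138 genes, 1194 had an unadjusted P-value under 0.05 with this block. The adjusted P-value with it was 0.0683 for *Csnk1a1* and *Sgk1* and 0.0249 for *Rora*. A block by scan day was not run, since all arrays were scanned on the same day. Depth limits *Per2*, *Per3* and *Cry1*, which did not reach 2 times the background.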
